A study of Rattus norvegicus with 4 samples.

Results

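The collagens are the main structural proteins of the connective tissue that surrounds and joins muscle fibres. Here 4 Agilent arrays with 1 colour each measured the family in male rats, in the soleus, a calf muscle of mostly slow fibres. Members were all genes whose symbol is Col, a number, the letter a and a number, found by matching the accession of each probe to a RefSeq table of gene names. Of 44 such genes in the table, 21 were matched, with 31 probes and 54 spots, among 26633 genes and transcripts in all. The other 23 (Col4a2, Col4a3, Col4a5, Col4a6, Col5a2, Col6a1, Col6a3, Col6a4, Col6a5, Col6a6, Col8a2, Col9a3, Col10a1, Col12a1, Col16a1, Col17a1, Col19a1, Col20a1, Col22a1, Col24a1, Col25a1, Col27a1 and Col28a1) were not analysed here.

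The 4 groups were regenerated overloaded, overloaded, regenerated and normal muscle. For the regenerated group the labels give 8 weeks since an injection of CTX, letters they do not expand and that in regeneration work usually stand for cardiotoxin, a toxin that destroys muscle fibres. The labels call the overloaded group hypertrophied, leave the way of loading unstated, and give no time since the injection for the regenerated overloaded group. Rats were 18 weeks old in both overloaded groups and 16 weeks old in the regenerated and normal groups. Sample titles end in L for both regenerated groups and in R for the overloaded and normal groups, letters the labels do not explain, nor do they say if groups of equal age share animals. RNA of 6 muscles was mixed for each group and hybridised to 1 array, so every group had n = 1, the spread between animals was not measured, and no test between groups was possible. The errors below are technical standard errors (SE) computed from the spots that repeat a probe within an array, and having only 4 arrays limits the precision.

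Collagen chains wind around each other in a helix built from repeats that begin with glycine, and the classes differ in what the helices assemble into. Fibrillar collagens (types I, II, III, V and XI) form the cross-banded fibrils that carry tension in tendon and in the sheaths of muscle. Type IV forms the sheet of the basement membrane that wraps each fibre, type VI forms beaded filaments next to it, and FACITs (fibril-associated collagens with interrupted helices) sit on the surface of fibrils. In muscle most collagen is made by fibroblasts of the connective tissue rather than by the fibres, and the sheaths are known to thicken after injury and under load.

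Signals are given as relative signal, the background-subtracted intensity divided by the 75th percentile of the same array. The signals of different genes come from different probes, and are compared between arrays only. Of the 21 members, 15 were well above background on all 4 arrays, 3 on some of them (Col2a1, Col4a4 and Col26a1) and 3 on none (Col9a2, Col13a1 and Col23a1). The share of probe spots well above background was 67.9% on the regenerated overloaded array, 70.4% on the overloaded array, 68.8% on the regenerated array and 60.2% on the normal array, with median local backgrounds of 32, 32, 33 and 44 intensity units on the same arrays. All 10 marker genes of slow muscle fibres were well above background on every array.

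The collagen signal was highest in regenerated overloaded muscle and lowest in normal muscle for most members. Among the 15 members above background on all 4 arrays, 14 had their highest signal in regenerated overloaded muscle, with Col9a1 as the exception, and 11 had their lowest in normal muscle. The full order regenerated overloaded, overloaded, regenerated, normal held for 9 of them: Col1a1, Col1a2, Col3a1, Col4a1, Col5a1, Col5a3, Col6a2, Col8a1 and Col14a1. Col9a1, Col11a2, Col15a1 and Col18a1 had the regenerated array above the overloaded array. How many of all genes had the same highest array, lowest array or order was not counted, so these counts describe the members only. Normal muscle is in both comparisons that gave the larger differences, and the part of its lower share of spots above background in them was not tested.

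**Figure D1:**
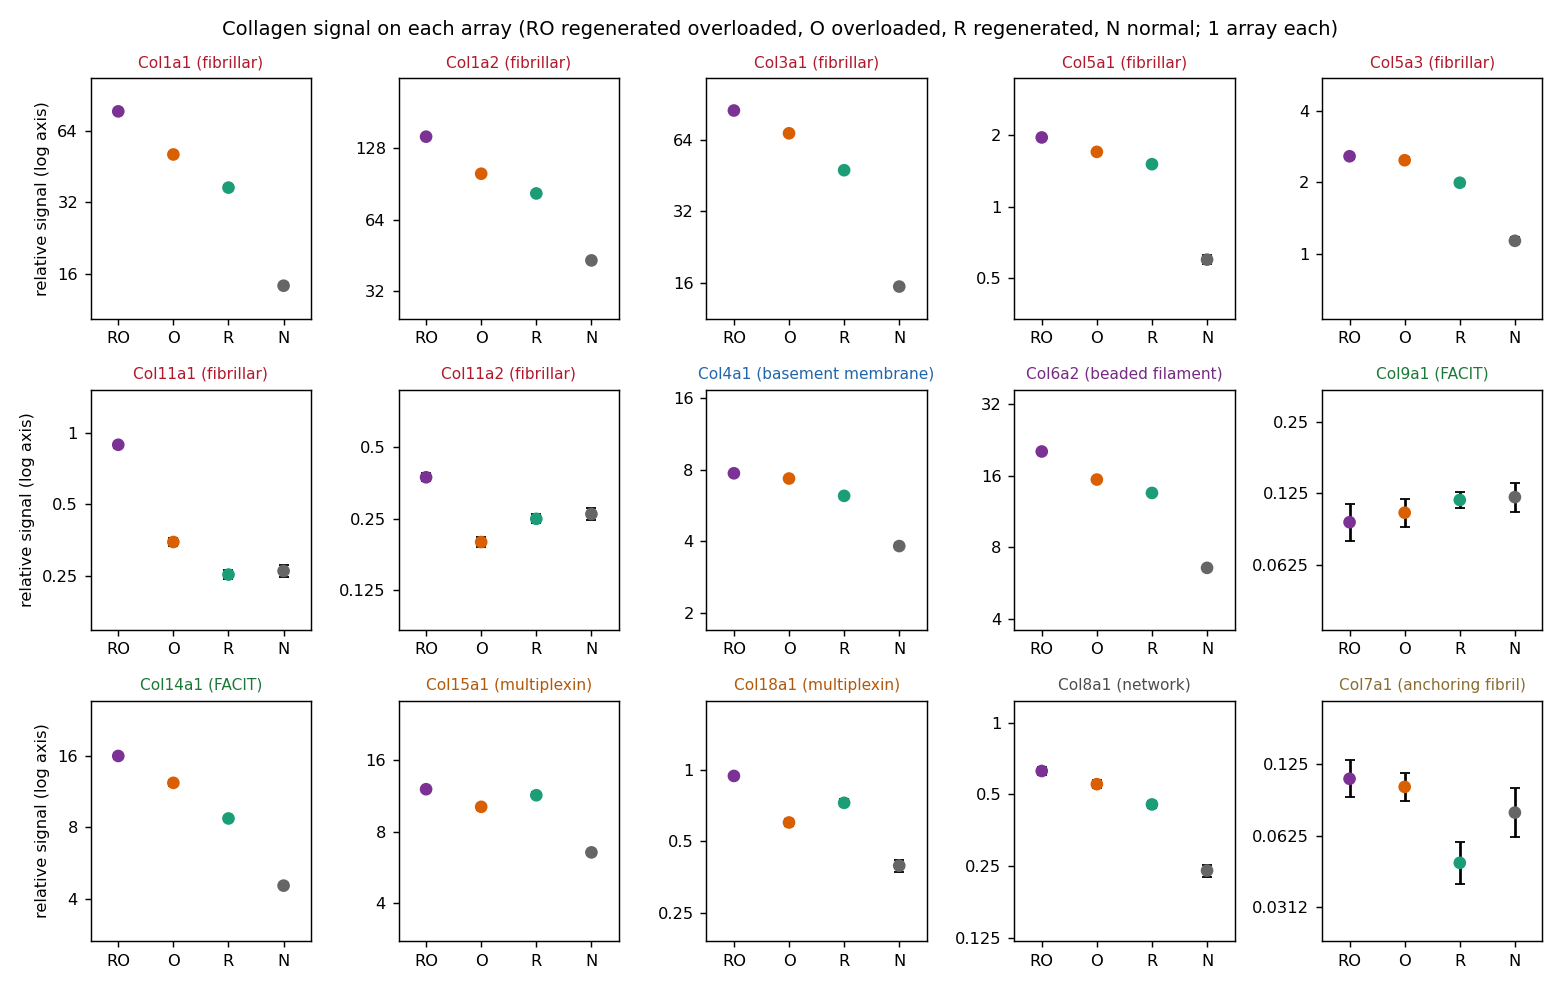
Relative signal (log axis, spanning the same number of folds in every panel) of the 15 collagens well above background on all arrays, in regenerated overloaded (RO), overloaded (O), regenerated (R) and normal (N) muscle, 1 point per array with the technical SE as bars. In 9 panels the points step down from RO to N, while Col11a1 stands high in RO, at 0.890, with the other arrays between 0.253 and 0.347.

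Counts of members are given at a 2-fold difference between 2 arrays, beside the share of all measured genes past the same limit; a gene counted as measured where either array had it well above background, which held for 18 members in each comparison. Regenerated muscle had 4 members 2-fold or more higher than normal muscle and none lower (Col3a1, Col1a1, Col5a1 and Col6a2), where 1.26% of 16892 measured genes were higher, 0.651% lower and 1.91% either. Overloaded muscle had 8 members higher than normal muscle and none lower, the same 4 and Col14a1, Col1a2, Col8a1 and Col5a3, where 2.42% of 17288 genes were higher, 0.74% lower and 3.16% either. Regenerated overloaded muscle had 3 members higher than regenerated muscle and none lower (Col11a1, Col7a1 and Col1a1), where 1.55% of 17187 genes were higher, 0.442% lower and 1.99% either. Against overloaded muscle it had 1 member higher, Col11a1, and none lower, where 1.01% of 17475 genes were higher, 0.681% lower and 1.69% either. With the looser rule that 0.5 of a probe's spots above background suffice, the members' counts were the same, and the shares of all genes that were higher were 2.25%, 3.92%, 2.23% and 1.58% in the order of these comparisons.

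Over the members above background on both arrays, the median log2 difference was 0.88 for regenerated minus normal (15 members), 1.13 for overloaded minus normal (15 members), 0.48 for regenerated overloaded minus regenerated (17 members) and 0.32 for regenerated overloaded minus overloaded (17 members). The median over all genes above background on both arrays was -0.11, -0.12, -0.02 and -0.01 in the same comparisons. At a limit of 1.5-fold, 11 members were higher in regenerated than in normal muscle, where 5.77% of all measured genes were higher. The 1 lower member was Col7a1, from 1 dim spot (-0.70, technical SE 0.45), where 376 of 16892 genes were lower. In overloaded muscle 12 members were higher than in normal muscle, where 7.94% were. At that limit 6 members were higher in regenerated overloaded than in regenerated muscle, where 4.61% of genes were higher. The 1 lower member was Col4a4 (-0.82, technical SE 0.73), where 425 of 17187 genes were lower. Col4a4 was not well above background on the regenerated overloaded array. Against overloaded muscle 5 members were higher, where 3.0% of genes were. Both overloaded groups also differed from the other groups in age and in the row of the slide that held the array, which cannot be told apart from load, and whatever the letters L and R mark cannot be told apart from injury. In mixed RNA of whole muscle, more cells that make collagen and more collagen RNA per cell cannot be told apart.

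**Figure D2:**
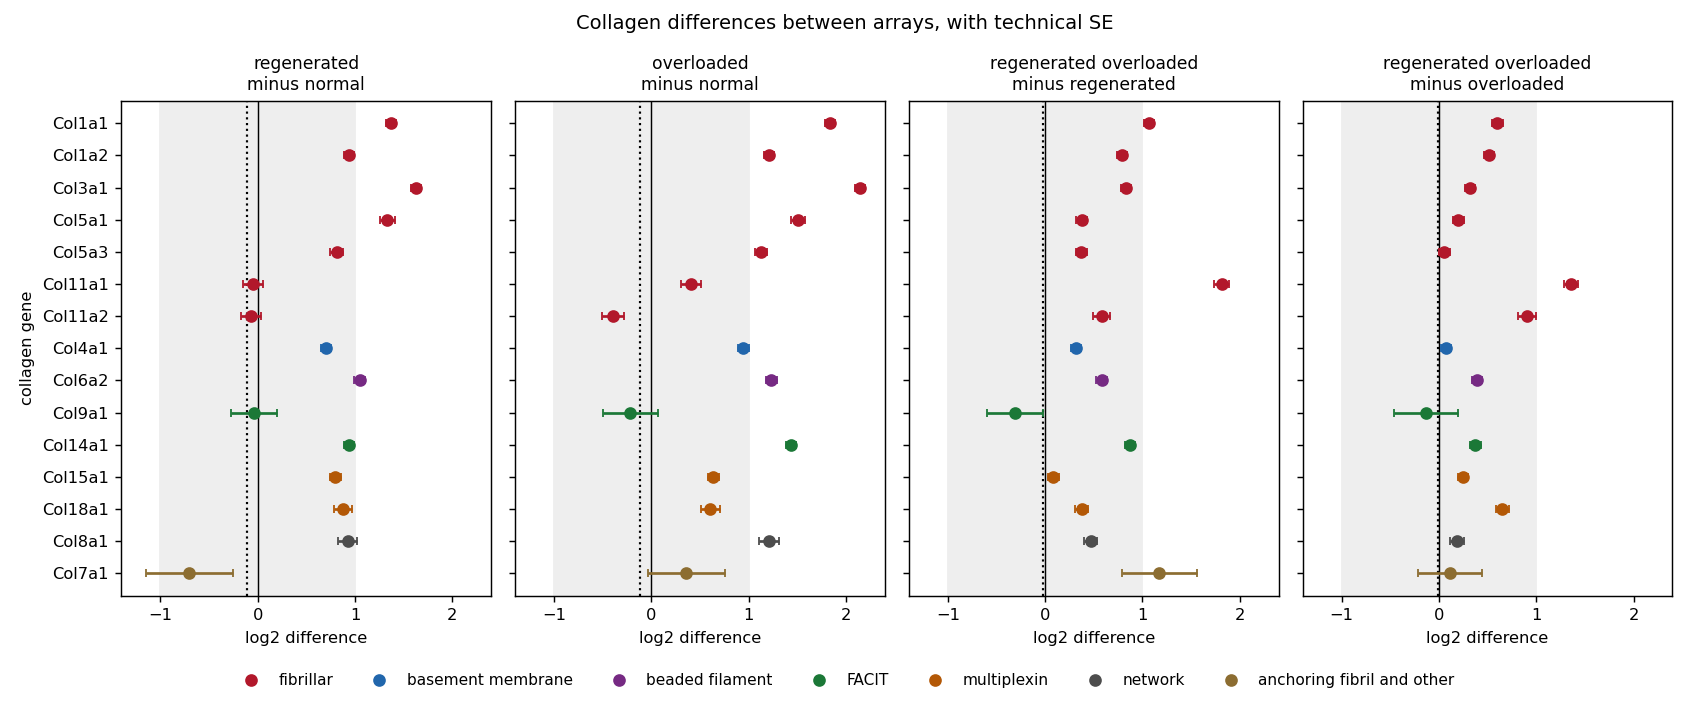
Log2 differences (x axis, with technical SE as bars) of the same 15 collagens in the 4 comparisons, coloured by class; the grey band spans less than 2-fold and the dotted line is the median of all genes. Col1a1, Col3a1 and Col5a1 lie to the right of the band in both comparisons with normal muscle, and Col11a1 lies to the right in both comparisons of regenerated overloaded muscle.

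The promoters of 4 members are shown because their genes stand for the patterns found: Col11a1 for high signal in regenerated overloaded muscle, Col1a2 and Col5a1 for the fibrillar chains that were higher in every other group than in normal muscle, and Col4a1 for the basement membrane. Each is the 250 bases before the annotated start of the gene on the plus strand (RefSeq, build GRCr8), at chr2:204508886-204509135 for Col11a1, chr4:33518307-33518556 for Col1a2, chr3:31606630-31606879 for Col5a1 and chr16:84885347-84885596 for Col4a1. Capitals mark exact matches, on either strand, to 4 short motifs that were searched separately. They were CCAAT, the box bound by NF-Y, then GGGCGG, the GC box bound by Sp1, then TATAAA, the TATA box, and last CAGAC, which SMAD proteins bind.
Col11a1: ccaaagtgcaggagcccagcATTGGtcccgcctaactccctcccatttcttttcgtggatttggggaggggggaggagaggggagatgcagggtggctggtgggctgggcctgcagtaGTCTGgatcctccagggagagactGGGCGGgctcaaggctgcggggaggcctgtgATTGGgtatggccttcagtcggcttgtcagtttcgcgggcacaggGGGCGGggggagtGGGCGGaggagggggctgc
Col1a2: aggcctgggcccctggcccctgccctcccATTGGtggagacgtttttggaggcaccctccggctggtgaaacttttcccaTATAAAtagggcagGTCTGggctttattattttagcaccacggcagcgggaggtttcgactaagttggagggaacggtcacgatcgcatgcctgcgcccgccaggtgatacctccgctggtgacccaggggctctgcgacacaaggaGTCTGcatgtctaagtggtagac
Col5a1: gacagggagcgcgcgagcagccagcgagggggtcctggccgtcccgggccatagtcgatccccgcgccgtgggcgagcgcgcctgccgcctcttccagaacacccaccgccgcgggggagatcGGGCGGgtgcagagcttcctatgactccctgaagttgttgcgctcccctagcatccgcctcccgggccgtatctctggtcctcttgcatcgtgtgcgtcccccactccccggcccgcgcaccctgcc
Col4a1: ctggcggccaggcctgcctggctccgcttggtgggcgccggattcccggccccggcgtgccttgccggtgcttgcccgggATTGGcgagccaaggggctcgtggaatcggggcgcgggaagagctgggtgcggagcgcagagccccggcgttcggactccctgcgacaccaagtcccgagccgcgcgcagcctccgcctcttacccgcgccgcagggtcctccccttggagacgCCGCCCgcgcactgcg

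Col11a1 held 2 CCAAT matches, 3 GC boxes and 1 CAGAC match. Col1a2 held a CCAAT match and a TATAAA match, 221 and 170 bases before the annotated start, and 2 CAGAC matches, with no GC box in these letters. The annotated starts were taken as given, and whether transcription begins there was not checked. Col5a1 held 1 GC box, and Col4a1 a CCAAT match and a GC box. Promoters of 16 members were in the table. Of these, 9 held a GC box (56.3%, against 30.5% of all 33469 promoters), 4 held CCAAT (25.0% against 34.0%), 6 held CAGAC (37.5% against 42.9%) and 2 held TATAAA (12.5% against 12.9%). The matches describe letters and not binding.

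Types I and III are the bulk of fibril collagen. Col1a1, the alpha 1 chain of type I, had a relative signal of 77.1 in regenerated overloaded, 50.8 in overloaded, 36.9 in regenerated and 14.3 in normal muscle. It was 2.59-fold higher in regenerated than in normal muscle (log2 difference 1.37, technical SE 0.053) and 3.56-fold higher in overloaded than in normal muscle (1.83, 0.053). Regenerated overloaded muscle was 2.09-fold above regenerated muscle (1.07, 0.052) and 1.52-fold above overloaded muscle. A second probe for the gene gave log2 differences of 1.61, 1.88, 0.91 and 0.64 in these comparisons, so regenerated overloaded against regenerated muscle was under 2-fold on that probe, as it was on the mean of both (0.99).

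Col3a1, the chain of type III collagen, which is prominent in young and healing tissue, had 85.1 in regenerated overloaded, 68.2 in overloaded, 47.7 in regenerated and 15.5 in normal muscle. It had the largest difference of the family in both comparisons with normal muscle, 3.09-fold for regenerated and 4.41-fold for overloaded, and ranked 42 of 16892 and 19 of 17288 measured genes from the highest. Regenerated overloaded muscle was 1.78-fold above regenerated and 1.25-fold above overloaded muscle. Col1a2, the partner of Col1a1 in type I collagen, had 143 in regenerated overloaded, 99.9 in overloaded, 82.5 in regenerated and 43.1 in normal muscle. The differences of Col1a2 were 1.91-fold for regenerated and 2.31-fold for overloaded against normal muscle, and 1.73-fold and 1.43-fold for regenerated overloaded against regenerated and against overloaded muscle.

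How far these 3 chains differed from each other depended on the probe of Col1a1. On its brightest probe the log2 difference of Col1a1 exceeded that of Col1a2 by 0.44 for regenerated minus normal (technical SE 0.075), 0.62 for overloaded minus normal, 0.27 for regenerated overloaded minus regenerated and 0.08 for regenerated overloaded minus overloaded muscle. On its second probe it exceeded Col1a2 by 0.67, 0.67, 0.12 and 0.12 in that order (technical SE 0.091 to 0.095). Col3a1 exceeded Col1a1 by 0.26 for regenerated minus normal muscle on the brightest Col1a1 probe but by 0.02 (technical SE 0.095) on the second, and by 0.31 and 0.26 for overloaded minus normal muscle. For regenerated overloaded minus overloaded muscle Col3a1 lay below Col1a1 on both probes (-0.28 and -0.32), and for regenerated overloaded minus regenerated muscle the values were -0.23 and -0.08 (technical SE 0.074 and 0.093).

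Type V collagen is built into type I fibrils and limits their width. Col5a1 had a relative signal of 1.95 in regenerated overloaded, 1.70 in overloaded, 1.51 in regenerated and 0.598 in normal muscle, and Col5a3 had 2.57, 2.47, 1.99 and 1.13 in that order. Col5a1 was 2.52-fold higher in regenerated and 2.84-fold higher in overloaded than in normal muscle. Its log2 difference for regenerated minus normal muscle, less that of Col1a1, was -0.04 with the brightest Col1a1 probe (technical SE 0.091) and -0.27 with the second (technical SE 0.11). Col5a3 was 1.76-fold and 2.18-fold higher in the same comparisons. Regenerated overloaded muscle was 1.30-fold (Col5a1) and 1.29-fold (Col5a3) above regenerated muscle, and 1.15-fold and 1.04-fold above overloaded muscle.

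Type XI collagen, best known from cartilage and also made in tendon, starts fibrils together with type V. Its alpha 1 chain, Col11a1, had 0.890 in regenerated overloaded muscle and 0.347 in overloaded, 0.253 in regenerated and 0.262 in normal muscle. It was 3.51-fold higher in regenerated overloaded than in regenerated muscle (log2 difference 1.81, technical SE 0.076) and 2.56-fold higher than in overloaded muscle (1.36, 0.076). Overloaded muscle was 1.32-fold above normal muscle (0.40, 0.10), and regenerated and normal muscle were within the technical error of each other (-0.05, 0.11). A second probe gave 1.61 and 1.72 for regenerated overloaded against regenerated and overloaded muscle, and the third, which was not well above background on the normal array, gave 1.45 and 1.71.

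Col11a2, the alpha 2 chain of type XI, had 0.373 in regenerated overloaded, 0.199 in overloaded, 0.250 in regenerated and 0.262 in normal muscle on its brightest probe. On that probe regenerated overloaded muscle was higher by 0.58 than regenerated and by 0.91 than overloaded muscle on the log2 scale. Its second probe went the other way, with log2 differences of -0.25 and -0.22, so that the direction for Col11a2 is not settled. Col2a1, the fibrillar collagen of cartilage, was not well above background on the normal array and had 0.0610, 0.0395 and 0.0492 in regenerated overloaded, overloaded and regenerated muscle, with a log2 difference of 0.31 (technical SE 0.29) for regenerated overloaded minus regenerated muscle.

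Because type XI collagen marks cartilage and tendon, marker genes of both were read on the same arrays. The 3 matched cartilage markers (Acan, Matn1 and Hapln1) were not well above background on any array. The 6 matched tendon markers were well above background on all arrays, with summed relative signals of 112 in regenerated overloaded, 70.9 in overloaded, 60.9 in regenerated and 46.6 in normal muscle. Thbs4, a matrix protein that muscle also makes, gave most of each sum, and the other 5 summed to 35.7, 20.4, 20.2 and 24.3, with the highest sum still in regenerated overloaded muscle but normal muscle above the rest. Of the 6, 4 were 2-fold or more higher in regenerated overloaded than in regenerated muscle, where 1.55% of all measured genes were: Tnmd (3.06-fold), Kera (2.75-fold), Comp (2.32-fold) and Fmod (2.27-fold). Against overloaded muscle Comp was 3.26-fold and Fmod 2.49-fold higher, where 1.01% of all measured genes were 2-fold or more higher. Thbs4 and Scx, a transcription factor of tendon cells, were 1.87-fold and 1.25-fold higher in regenerated overloaded than in regenerated muscle.

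Of the tendon markers, Kera alone was 2-fold or more lower in regenerated than in normal muscle, where 0.651% of all measured genes were. It was 2.99-fold lower (0.0978 in regenerated and 0.293 in normal muscle). Tnmd was 1.42-fold, Scx 1.24-fold and Fmod 1.15-fold lower, while Thbs4 and Comp were higher. The list median was -0.26 on the log2 scale, against -0.11 over all genes above background on both arrays. Kera had 0.269 in regenerated overloaded muscle, below the 0.317 of overloaded and the 0.293 of normal muscle. The part of tendon tissue in the Col11a1 signal was not tested.

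**Figure D3:**
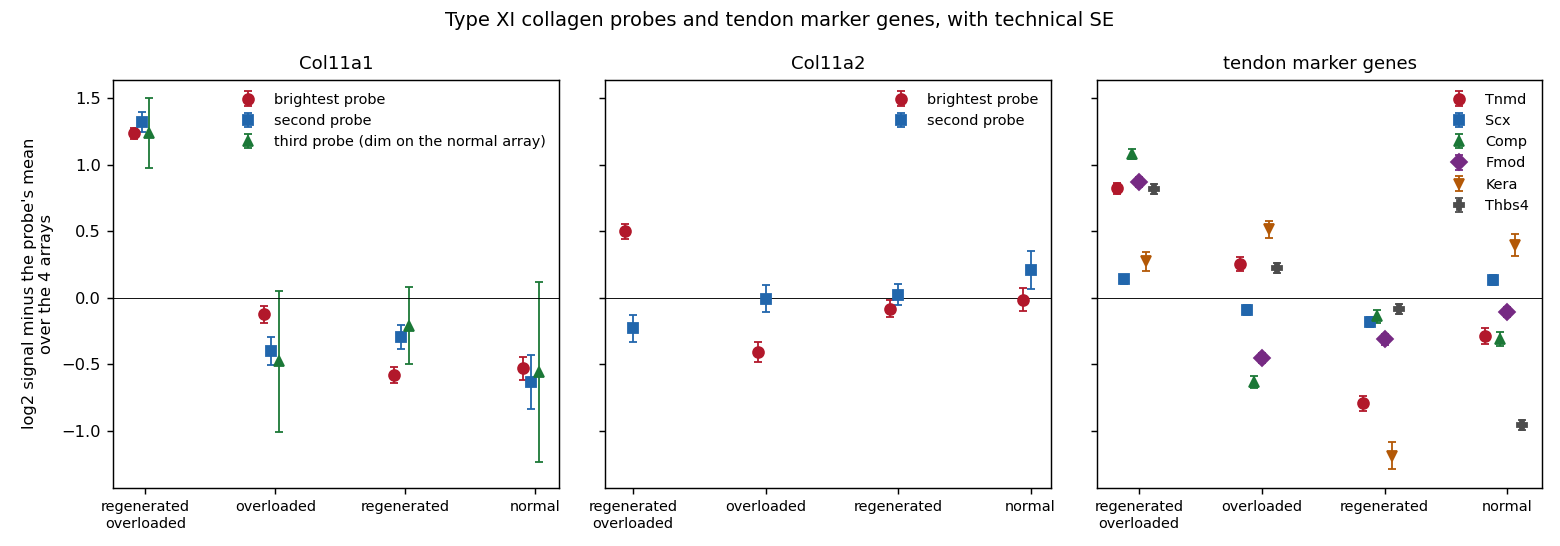
Log2 signal of each probe minus its own mean over the 4 arrays (y axis, with technical SE as bars) for the 3 probes of Col11a1, the 2 probes of Col11a2 and 6 tendon marker genes, with the 4 arrays along the x axis. All 3 Col11a1 probes stand highest in regenerated overloaded muscle, as does the brightest probe of Col11a2 but not its second probe. Of the 6 tendon genes 5 are highest there too, the exception being Kera, but Scx is level with normal muscle within its technical SE. How many of all genes were highest there was not counted.

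The basement membrane class was measured through Col4a1, one of the chains of the sheet around every fibre and capillary. It had 7.73 in regenerated overloaded, 7.35 in overloaded, 6.21 in regenerated and 3.82 in normal muscle. Regenerated and overloaded muscle were 1.63-fold and 1.92-fold above normal muscle, and regenerated overloaded muscle was 1.24-fold above regenerated and 1.05-fold above overloaded muscle. A second, dimmer probe gave log2 differences of 0.37 and 0.69 against normal muscle. Col4a4, a type IV chain of the kidney filter, was read from 1 spot that was well above background in overloaded and regenerated muscle alone (0.0299 and 0.0486). Its measured signal was 1.77-fold lower in regenerated overloaded than in regenerated muscle, with a technical SE of 0.73 on the log2 scale. Over all processing settings this difference ran from -0.89 to -0.23 on that scale.

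The beaded filament class was measured through Col6a2, a chain of type VI collagen, which links the basement membrane of the fibre to the fibrils around it and whose mutations cause muscle disease in humans. Col6a2 had 20.2 in regenerated overloaded, 15.4 in overloaded, 13.5 in regenerated and 6.55 in normal muscle. It was 2.07-fold higher in regenerated and 2.35-fold higher in overloaded than in normal muscle. Regenerated overloaded muscle was 1.49-fold above regenerated and 1.31-fold above overloaded muscle. The difference between regenerated and normal muscle was 0.96 on the log2 scale, under 2-fold, when arrays were scaled to their medians.

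Of the FACITs, Col14a1, which binds fibrils through their proteoglycans, had the same order of arrays as Col1a1 and Col3a1, and Col9a1 did not. Col14a1 had 16.0 in regenerated overloaded, 12.3 in overloaded, 8.73 in regenerated and 4.56 in normal muscle. It was 1.92-fold higher in regenerated and 2.71-fold higher in overloaded than in normal muscle, and regenerated overloaded muscle was 1.83-fold above regenerated and 1.30-fold above overloaded muscle. Its second probe gave 0.79, 1.35, 0.82 and 0.26 on the log2 scale in these comparisons. Col9a1, a FACIT of cartilage, had between 0.0945 and 0.121 on the 4 arrays, and its log2 differences ran from -0.31 to -0.04, with technical SEs of 0.23 to 0.33. A second Col9a1 probe, which was not well above background on the normal array, measured -0.88 for regenerated and -0.87 for overloaded minus normal muscle (technical SE 0.32 and 0.35), and the third was above background on no array.

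The multiplexins Col15a1 and Col18a1 are collagens of vessel and fibre basement membranes, and type XVIII is the source of endostatin. Both had regenerated above overloaded muscle, unlike the fibrillar Col1a1, Col1a2, Col3a1, Col5a1 and Col5a3 but like the fibrillar Col11a2. Col15a1 had 12.1 in regenerated overloaded, 10.2 in overloaded, 11.4 in regenerated and 6.56 in normal muscle. Col18a1 had 0.940 in regenerated overloaded, 0.599 in overloaded, 0.725 in regenerated and 0.394 in normal muscle. Both were further above normal muscle in regenerated (1.74-fold and 1.84-fold) than in overloaded muscle (1.55-fold and 1.52-fold). Regenerated overloaded muscle was 1.19-fold (Col15a1) and 1.57-fold (Col18a1) above overloaded muscle.

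Col8a1, a chain of a network-forming collagen of vessel walls, had 0.627 in regenerated overloaded, 0.552 in overloaded, 0.454 in regenerated and 0.239 in normal muscle. It was 1.90-fold higher in regenerated and 2.31-fold higher in overloaded than in normal muscle. Col7a1, the collagen of the anchoring fibrils of skin, was read from 1 dim spot, with 0.109 in regenerated overloaded, 0.100 in overloaded, 0.0481 in regenerated and 0.0783 in normal muscle. Regenerated overloaded muscle was 2.26-fold above regenerated muscle, with a technical SE of 0.39 on the log2 scale, and normexp background correction gave 0.55 in place of 1.17 on that scale. Col26a1, also 1 spot, was not well above background in normal muscle. With the main settings it was at least 1.71-fold higher in overloaded than in normal muscle, with a technical SE of 0.58 on the log2 scale. Over all processing settings this difference ran from 0.24 to 0.98 on that scale.

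Members of a class differed from each other, and every class but the fibrillar one had 1 or 2 members above background on all arrays or none. The fibrillar members above background on both arrays spanned log2 differences of -0.07 to 1.63 for regenerated minus normal and -0.39 to 2.14 for overloaded minus normal, with medians of 0.94 and 1.21 over 7 members. The basement membrane (Col4a1: 0.70 and 0.94), beaded (Col6a2: 1.05 and 1.23) and FACIT (Col9a1 to Col14a1: -0.04 to 0.94 and -0.22 to 1.44) values in these comparisons lay within that span. The difference of Col1a1 exceeded that of Col4a1 in each of the 4 comparisons, by 0.67, 0.89, 0.75 and 0.53 on the log2 scale (technical SE of 0.073 to 0.077). It exceeded that of Col6a2 by 0.32, 0.60, 0.49 and 0.21. On the second Col1a1 probe these values were 0.91, 0.94, 0.60 and 0.56 for Col4a1 and 0.56, 0.65, 0.33 and 0.24 for Col6a2. With Col4a1 and Col6a2 as the main readings of their classes, a difference between classes was not testable.

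The question of whether earlier injury changes the answer to overload was read as the overload difference in regenerated muscle minus that in normal muscle. For most collagens the overload difference was smaller in regenerated muscle. For Col11a1 it was larger on its brightest and second probes (1.41 and 1.38, technical SE 0.13 and 0.26). The third Col11a1 probe gave 1.37 with a technical SE of 0.94 and was not well above background on the normal array. Of the 15 members above background on all arrays, 12 had a smaller and 3 a larger overload difference in regenerated muscle on their brightest probes. Of all 14392 such genes, 5457 had a smaller and 8935 a larger one. Smaller and larger refer to signed values, so a gene that fell less with overload in regenerated muscle counts as larger. The median over all genes above background on both arrays was -0.12 for overloaded minus normal and -0.02 for regenerated overloaded minus regenerated muscle. Col9a1, which was lower with overload in both settings (-0.22 in normal and -0.31 in regenerated muscle), counts as smaller. The collagen median was -0.56 on the log2 scale (median technical SE 0.085), against 0.07 over the 14392 genes. The normal array enters this difference too, and the part of its lower share of spots above background was not tested. At 2-fold or more, Col11a1 was larger (1.41, technical SE 0.13), where 0.368% of all genes were, and Col3a1 (-1.31, 0.074) and Col5a1 (-1.13, 0.093) were smaller, where 0.389% were (0.757% of all genes either way). Col11a2 was larger on its brightest probe (0.97, 0.14) but not on its second (-0.04, 0.22), and Col7a1, from 1 dim spot, had 0.82 with a technical SE of 0.55. Smaller by less were Col1a1 (-0.77), Col5a3 (-0.76), Col8a1 (-0.74), Col6a2 (-0.65), Col4a1 (-0.63), Col14a1 (-0.56), Col15a1 (-0.55), Col1a2 (-0.42), Col18a1 (-0.23) and Col9a1 (-0.09), the last within its technical SE of 0.40.

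In regenerated muscle the starting signal was already higher: Col3a1 had 85.1 with overload and 47.7 without it in regenerated muscle, and 68.2 with overload and 15.5 without it in normal muscle. Among all 287 genes that were 2-fold or more higher in overloaded than in normal muscle and above background on all arrays, 262 (91.3%) had a smaller overload difference in regenerated muscle, with medians of 0.71 in regenerated and 1.24 in normal muscle, and 43 (15.0%) had one at least 2-fold smaller. The 8 collagens of that group all had a smaller one, with medians of 0.69 and 1.33. For 2 of them, Col3a1 and Col5a1, it was at least 2-fold smaller. These genes were chosen by their high overload difference in normal muscle, which is 1 side of the comparison. That choice alone favours a smaller value on the other side. The counts are therefore a description, and cannot show whether earlier injury changed the answer to overload.

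**Figure D4:**
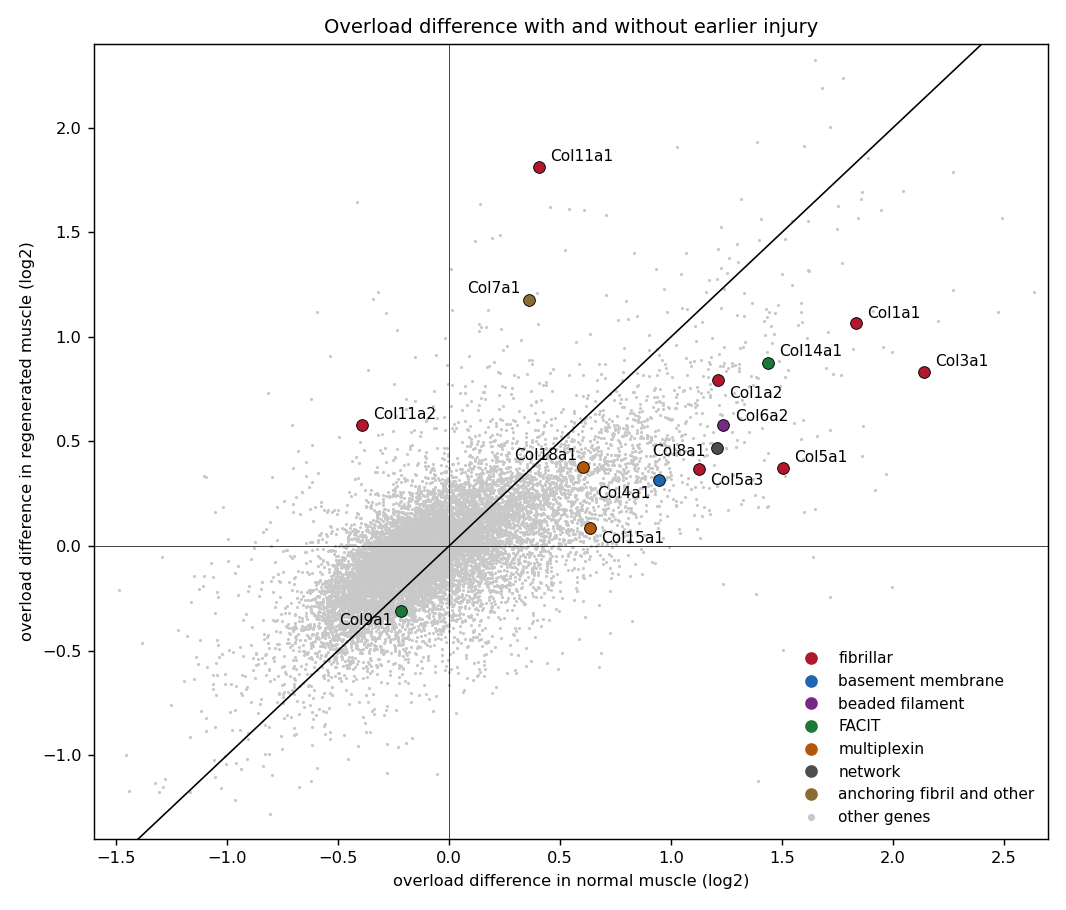
Overload difference in regenerated muscle (y axis, log2) against that in normal muscle (x axis, log2) for 15 collagens, coloured by class, and 14377 other genes in grey, of which 26 lie outside the axes; the line marks equal differences. Most collagens lie right of the line, Col3a1 and Col5a1 farthest, while Col11a1, Col7a1 and the brightest probe of Col11a2 lie above it.

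Collagen chains need a set of partner genes, of which 4 lists were read. Among the enzymes and chaperones that modify and fold the chains, 17 of 19 were matched. In overloaded against normal muscle 1 of 16 measured genes was 2-fold or more higher, Fkbp10, a folding catalyst for type I collagen (2.15-fold), and none was lower. The list median was 0.45, and 2.42% of all measured genes were 2-fold or more higher. In the other 3 comparisons none of the genes passed 2-fold, with medians of 0.25 for regenerated minus normal, 0.32 for regenerated overloaded minus regenerated and 0.15 for regenerated overloaded minus overloaded. Serpinh1, the collagen chaperone HSP47, was 1.73-fold and 1.83-fold higher in regenerated and overloaded than in normal muscle, P3h3, a prolyl 3-hydroxylase family member, 1.73-fold and 1.76-fold, and Plod2, the lysyl hydroxylase of collagen ends, 1.59-fold and 1.70-fold. Farthest from 0 for regenerated overloaded minus regenerated muscle were Fkbp10 (0.88), P4ha3, a prolyl 4-hydroxylase subunit (at least 1.57-fold higher, technical SE 0.68), and P3h4, a partner of P3h3 (0.54). For regenerated overloaded minus overloaded muscle they were P4ha3 (at least 1.76-fold higher, technical SE 0.72), P3h4 (0.40) and P3h3 (0.38).

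Of the genes that trim procollagen and cross-link fibrils, 8 of 13 were matched. In overloaded muscle 4 of 7 were 2-fold or more higher than in normal muscle and none was lower: Loxl1 (3.02-fold) and Loxl2 (2.17-fold), lysyl oxidases that start cross-links, Sparc (2.19-fold), a collagen-binding matrix protein, and Pcolce (2.03-fold), an enhancer of procollagen trimming. In regenerated muscle Loxl1 was 2.12-fold higher than in normal muscle, 1 of 8 measured genes. Of all measured genes, 2.42% were 2-fold or more higher in overloaded and 1.26% in regenerated than in normal muscle. The list medians were 0.74 for regenerated minus normal, 1.02 for overloaded minus normal, 0.48 for regenerated overloaded minus regenerated and 0.24 for regenerated overloaded minus overloaded muscle, and no gene passed 2-fold in the comparisons of regenerated overloaded muscle. Farthest from 0 there were Loxl2 (0.70), Pcolce (0.66) and Loxl1 (0.60) against regenerated muscle, and Loxl4 (0.58), Pcolce (0.43) and Loxl2 (0.37) against overloaded muscle. Loxl4 was not well above background on the overloaded array.

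Genes of collagen breakdown also differed between the arrays. Mmp14, a membrane-bound collagenase, had log2 differences of 1.27 for regenerated and 2.27 for overloaded minus normal muscle, and of 1.22 for regenerated overloaded minus regenerated muscle. Mmp2, a gelatinase that Mmp14 activates, had 1.16 and 1.44 against normal muscle, from 1 spot. Ctsk, cathepsin K, which cuts collagen helices in lysosomes, had 1.47 for overloaded minus normal muscle and 1.11 for regenerated overloaded minus regenerated muscle. The list also holds Timp1, Timp2, Timp3 and Timp4, which are inhibitors of metalloproteinases. For overloaded minus normal muscle they had 0.80, 0.86, -0.31 and -0.62 in that order. For regenerated overloaded minus regenerated muscle they had 1.17, 0.40, -0.48 and -0.80. Mmp8, Mmp9 and Mmp13 were not well above background on any array. Of 7 measured genes, inhibitors included, 2 were 2-fold or more higher in regenerated and 3 in overloaded than in normal muscle, and 3 were in regenerated overloaded than in regenerated muscle. The shares of all measured genes that were higher were 1.26%, 2.42% and 1.55% in these comparisons. None passed 2-fold for regenerated overloaded minus overloaded muscle, where Mmp2 (0.61), Timp1 (0.51) and Ctsk (0.41) were farthest from 0, and none was 2-fold lower in any comparison.

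None of the measured collagen receptors passed 2-fold in a comparison. The list medians were 0.09, 0.15, 0.33 and 0.31 over 5 genes above background on both arrays. The values farthest from 0 were those of Mrc2, an uptake receptor for collagen fragments (1.66-fold and 1.68-fold higher in regenerated and overloaded than in normal muscle), Itga10, an integrin of cartilage (1.87-fold higher in regenerated overloaded than in overloaded muscle), and Ddr2, a receptor kinase that binds fibrillar collagen (1.30-fold higher in regenerated than in normal muscle).

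**Figure D5:**
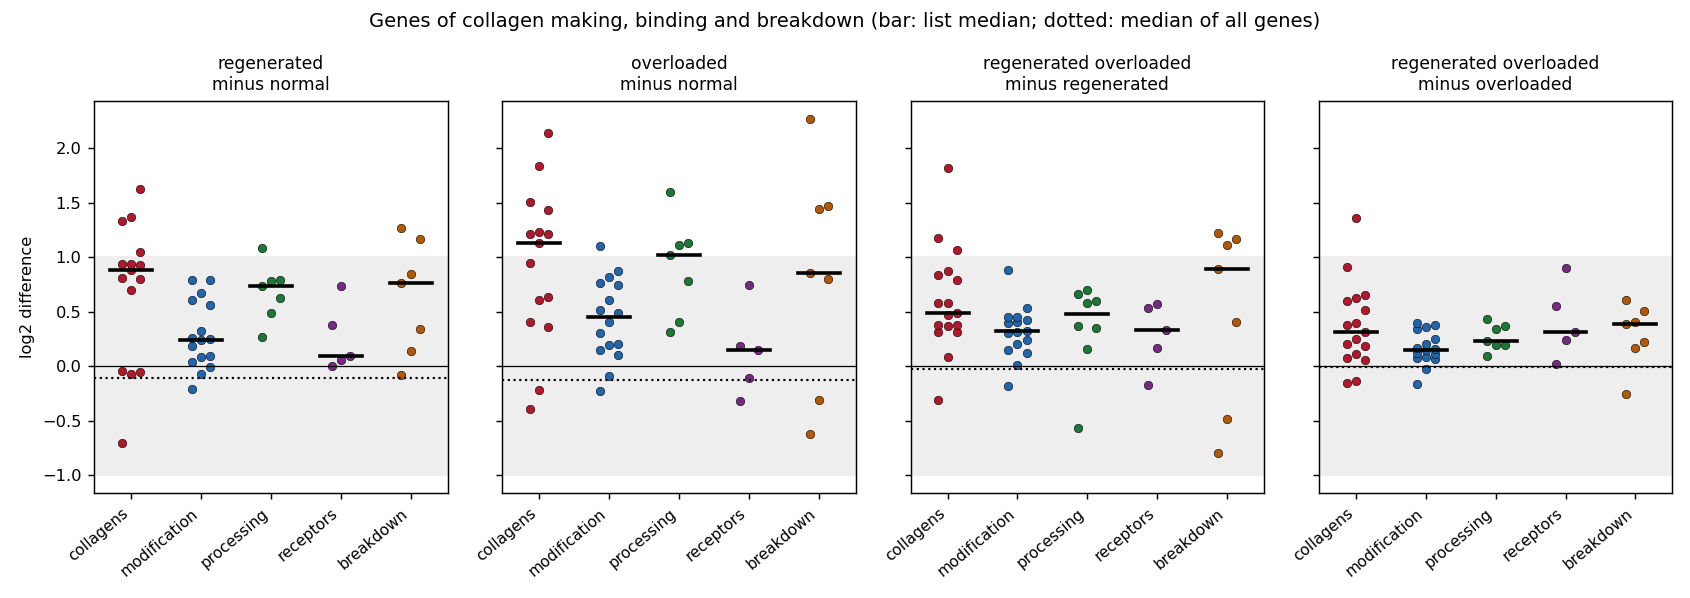
Log2 differences (y axis) of the collagens and of 4 lists of partner genes in the 4 comparisons, 1 point per gene above background on both arrays; black bars are list medians, the dotted line is the median of all genes and the grey band spans less than 2-fold. The medians of the collagens, the processing genes and the breakdown genes (Timp inhibitors included) lie above those of the modification genes and receptors in both comparisons with normal muscle.

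Markers of fibroblasts and macrophages had their lowest sums in normal muscle, as most collagens did. The 7 matched fibroblast markers had summed relative signals of 99.2 in regenerated overloaded, 103 in overloaded, 76.4 in regenerated and 58.4 in normal muscle, with 7, 7, 7 and 5 of them well above background. The 6 macrophage markers summed to 50.1, 45.9, 43.2 and 27.5 on the same arrays and were all above background. The 10 slow fibre markers went the other way, with 2603, 2802, 2886 and 3501, but none was 2-fold apart in a comparison. Their median log2 difference was -0.27 for regenerated and -0.32 for overloaded minus normal muscle, against -0.11 and -0.12 over all genes. The 75th percentile used for scaling was 790, 817, 740 and 662 intensity units on these arrays, and its part in the slow fibre values was not tested. The 6 endothelial markers summed to between 12.5 and 13.6. The 6 smooth muscle and pericyte markers summed to 69.9, 61.0, 68.9 and 76.4, most of it Des, the desmin gene, which muscle fibres express too. The other 5 of these summed to 5.31, 4.88, 4.78 and 4.17, in the order of most collagens, and among them Pdgfrb, a pericyte receptor, was 1.70-fold higher in regenerated and 1.88-fold higher in overloaded than in normal muscle. The 5 Schwann cell markers summed to 2.11, 2.76, 2.58 and 2.63, and without Mbp, the brightest, to 0.949, 0.846, 0.878 and 0.673. Without their brightest genes, Mfap5 and Lyz2, the fibroblast and macrophage sums were still lowest in normal muscle. The part of a changed share of these cells in the collagen differences was not tested.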

How the data were processed

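Per the labels, RNA was isolated with Isogen and labelled with Cy3 as cRNA (Low Input Quick Amp kit). The deposited scanner files give, per spot, an intensity that the scanner software background-subtracted and spatially detrended, the raw median intensities of spot and local background, and flags (other). The scanner software was Feature Extraction, version 11.5.1.1 per the file headers but 10.10.1.1 per the submitters' processing notes. The deposited value table holds the same intensity times 1 constant per array (2.02, 1.95, 2.10 and 2.14 for regenerated overloaded, overloaded, regenerated and normal muscle), on a linear scale and not centred (column medians 226, 222, 212 and 182); where the constant comes from is unknown.

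Between 406 and 451 outlier spots per array were left out of 58717 probe spots, and no spot was saturated. Log2 intensities were scaled to the 75th percentile of their array and averaged over the spots of each probe, and the brightest probe over the 4 arrays stood for its gene. A probe counted as well above background on an array where all its spots did, a requirement set, to match earlier processing of these data, after a first pass that asked for at least 0.5 of the spots. Where 1 array alone was above background, the other array entered at the lowest signal it had well above background ("at least"). Where the probe itself was brighter than that, its own signal was used and the difference is as measured. Technical SEs came from the SD between spots, pooled in 20 bins of signal. The steps were tested on spots simulated from the levels of the normal array and the spot noise, with known folds given to brighter genes only. That test did not cover shifts in scaling, the bounds used for dim probes or the spread between animals. By accession, 18643 of 30367 probes matched 15637 symbols (RefSeq, GRCr8); the files place probes on rn4, so no probe coordinates are given. Other scalings used limma 3.58.1 in R 4.3.3, the rest Python 3.11.15 with pandas 2.3.3 and matplotlib 3.10.9. Every member was described; of the partner lists, genes past 2-fold were named, otherwise the 3 farthest from 0 in the comparison (receptors: over all comparisons). The members, lists and limits were chosen with earlier results of these data known. Protein sequences were not used here.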

Additional observations from a re-analysis of the deposited data

Results flagged for a closer look

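With 1 array per group, members whose difference between 2 conditions had opposite signs in 2 settings were singled out; none of these differences was tested, and a sign near 0 carries little. Col11a2 was higher with overload in regenerated muscle (0.58 on the log2 scale) and lower in normal muscle (-0.39), a gap of 0.97, and its second probe gave -0.25 and -0.22. Earlier injury went with a higher Col11a1 signal in overloaded muscle (1.36) and with -0.05 in muscle without overload, a gap of 1.41. Its other probes gave gaps of 1.38 and 1.37 (technical SE 0.26 and 0.94). Without overload these probes had 0.34 and 0.35, the third not above background in normal muscle. The change of sign was thus seen on the brightest probe alone. For Col11a2 these values were 0.91 and -0.07, and the same gap of 0.97 (technical SE 0.14), against -0.22 and -0.19 and a gap of -0.04 (technical SE 0.22) on the second probe, with no change of sign. For Col7a1, from 1 dim spot, they were 0.11 and -0.70, a gap of 0.82 with a technical SE of 0.55.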

How the results depend on the processing

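The alternatives were other scalings (quantile, cyclic loess, array medians, the authors' value table), normexp background correction with quantile normalization, other rules for dim probes and spots, the mean over probes and a 1.5-fold limit. The count of collagens 2-fold or more apart for regenerated against normal muscle was 8 in the authors' value table, against 4, with Col1a2, Col8a1, Col14a1 and Col18a1 added (1.07, 1.06, 1.07 and 1.01 on the log2 scale). Without the filter on dim probes the count for regenerated overloaded against overloaded muscle was 2, against 1, through Col23a1, which no array had above background. At 1.5-fold the counts were 12 for regenerated against normal, 7 for regenerated overloaded against regenerated and 5 for regenerated overloaded against overloaded muscle. The median overload difference in regenerated minus normal muscle, -0.56, was -0.65 with quantile normalization, -0.70 with cyclic loess and -0.69 in the authors' value table; the cause was not tested. Of 901 values of single members under the 11 alternatives that kept the 2-fold limit, 5 fell under it, 17 passed it and none past it turned sign. Those that fell under it were Col6a2 for regenerated minus normal (0.96, median scaling), Col8a1 for overloaded minus normal (0.98, normexp), Col7a1 (0.55, normexp) and Col1a1 (0.99, mean over probes) for regenerated overloaded minus regenerated muscle, and the overload gap of Col5a1 (-0.99, normexp). Scaling moved the median of all genes between -0.24 and 0.05 for overloaded minus normal muscle; relative to it the collagen median lay between 1.21 and 1.25, and was 1.07 with normexp, which also changes the background correction. For regenerated minus normal muscle it moved between -0.20 and 0.02, and the relative collagen median lay between 0.94 and 0.99, and was 0.85 with normexp. Both the requirement that all spots of a probe be above background and the return to at least 0.5 of them as an alternative were chosen after seeing the data, as were the second Col1a1 probe in ratios and the marker sums without the brightest gene. The looser rule gave the same collagen counts of 4, 8, 3 and 1 (regenerated against normal, overloaded against normal, then regenerated overloaded against regenerated and against overloaded), while all genes past 2-fold were 566, 895, 597 and 591, against 322, 546, 342 and 295. These were 116, 212, 102 and 56 with normexp, 2209, 5698, 1460 and 1438 without the filter on dim probes, and 196, 372, 225 and 143 with genes above background on both arrays. Scaling also moved their split: for regenerated against normal muscle 212 were higher and 110 lower, against 157 and 138 with median scaling and 322 and 90 in the authors' value table, and for overloaded against normal muscle 418 and 128, against 305 and 171 and 707 and 82. No paired analysis was possible because each group had 1 array of mixed RNA, and the labels do not say whether groups share rats. Signal over background limits Col7a1, Col9a1, Col2a1, Col4a4 and Col26a1.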
